A study of Drosophila melanogaster with 8 samples.

Results

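Testes that overexpressed cbc together with PCF11 were set against testes that overexpressed cbc alone, to see what the added PCF11 transgene changed in poly(A) site use and in read levels. The members are the 2 libraries of each of these genotypes, 4 of the 8 libraries of the series. Their deposited count tables were joined by site. Of 529 listed entries (a gene with its transcript), 525 averaged at least 10 reads per library over these 4 libraries. With PCF11 added, no gene's site use passed the test by edgeR, and the summed reads of 2 genes, nrv2 and alpha-Est5, were higher.

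The 3' end of an mRNA is made when the cleavage and polyadenylation machinery cuts the nascent transcript and a poly(A) tail is added, and many genes carry more than 1 site where this can happen. Use of the site nearer the coding region (the proximal site) gives a shorter 3' UTR, and use of a more distal site a longer one. Cbc is the fly Clp1 and PCF11 the fly Pcf11. Both are subunits of the same cleavage factor, and Pcf11 also binds the tail of RNA polymerase II and acts in transcription termination.

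All 4 groups are males mutant for bam (alleles bam86 and bam1), whose germ cells stay in spermatogonial divisions, and all carry the germ line drivers nosGal4 and bamGal4. To the shared background of nosGal4/Y and bam86,bamGal4/bam1, the cbc+PCF11 group adds UAS>cbc-V5+PCF11-RF-HA over a wild-type chromosome, and the cbc group adds UAS>cbc-V5 in the same way. Beside them stand a PCF11 group with UAS>PCF11-RF-HA and a control group with no UAS transgene. Each library comes from 150 pairs of whole testes, and crosses were kept for 3 days at 25 °C before the progeny were moved to 29 °C. The labels do not say that duplicates came from separate cultures, so the p-values cover only how much these libraries vary, which may be technical. The cbc+PCF11 group carries both transgenes and the cbc group 1, so PCF11 and the presence of a further transgene cannot be told apart. The listed genes include neither cbc nor Pcf11, whose levels were not measured here.

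The libraries were made with a kit that reads the 3' ends of mRNAs (QuantSeq forward). Reads at the listed sites numbered 296166 and 287828 in the cbc+PCF11 libraries, against 287046 and 244017 in the cbc libraries. Reads elsewhere are not in these sums, which are therefore no measure of library depth. The median entry had 266 to 321 reads in the 4 libraries. At 300 reads, a share of 25.0% has an exact 95% binomial interval of 20.2% to 30.3%. It covers counting error only and takes reads as independent, though they carried no molecular identifiers. Duplicates differed by more than counting error, with a chi-square over its degrees of freedom of 9.79 for the cbc+PCF11 pair and 5.88 for the cbc pair. Library 1 of cbc+PCF11 stood apart from library 2 in genes that respond to cbc (values without it stand beside the genes concerned). Cell type markers give little to check the tissue by. Of the 7 cyst cell markers listed for this work, chinmo and zfh1 were measured, and of the 22 spermatocyte markers CycB3 and twe. With cbc+PCF11 against cbc, summed reads changed by log2 -0.35 in chinmo, -0.22 in zfh1, 0.19 in CycB3 and -0.61 in twe. None of these passed (lowest edgeR adjusted p = 0.352). None of the hub, early germ line, spermatid, sheath or fat markers is among the listed entries. In bulk testes, fewer cells of a type and less RNA per cell cannot be told apart.

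Of the 529 entries, 505 have 2 listed sites and 24 have 3, and the proximal site of 526 entries is in an annotated 3' UTR. Proximal usage is the percentage of an entry's reads at its most proximal site. It was tested in 516 entries with enough reads, whose sites lie a median of 436.5 bp apart. With cbc+PCF11 against cbc, 0 of 516 entries passed in either direction by edgeR (quasi-likelihood, Benjamini-Hochberg adjustment, 0% called). The lowest adjusted p by edgeR was 0.264, and 32 entries had an unadjusted p below 0.05. DESeq2, with the same terms, called 13, of which 11 lay toward the proximal site and 2 toward the distal site, and gave 160 entries no adjusted p. Which of the named genes those were is said beside them.

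Single libraries of cbc+PCF11 and of cbc differed in proximal usage by a median of 4.02 to 5.38 percentage points over the 4 pairs. Duplicates differed by 4.24 points with cbc+PCF11 and 3.66 with cbc. Group means, which vary less than single libraries, lay a median of 3.32 points apart between cbc+PCF11 and cbc and 5.75 between cbc and control. Means over 20 points apart occurred in 12 entries for cbc+PCF11 and cbc, and in 65 for cbc and control. The median proximal share over the 516 entries was 21.2% and 20.9% in the cbc+PCF11 libraries, against 19.1% and 20.6% in the cbc libraries. That is 21.0% ± 0.248 with cbc+PCF11 and 19.9% ± 1.02 with cbc (SD, n = 2 each), or 1.19 points more with cbc+PCF11. By an exact permutation test over libraries (two-sided) p was 0.333, and no lower p is possible with 2 libraries a group.

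**Figure D1:**
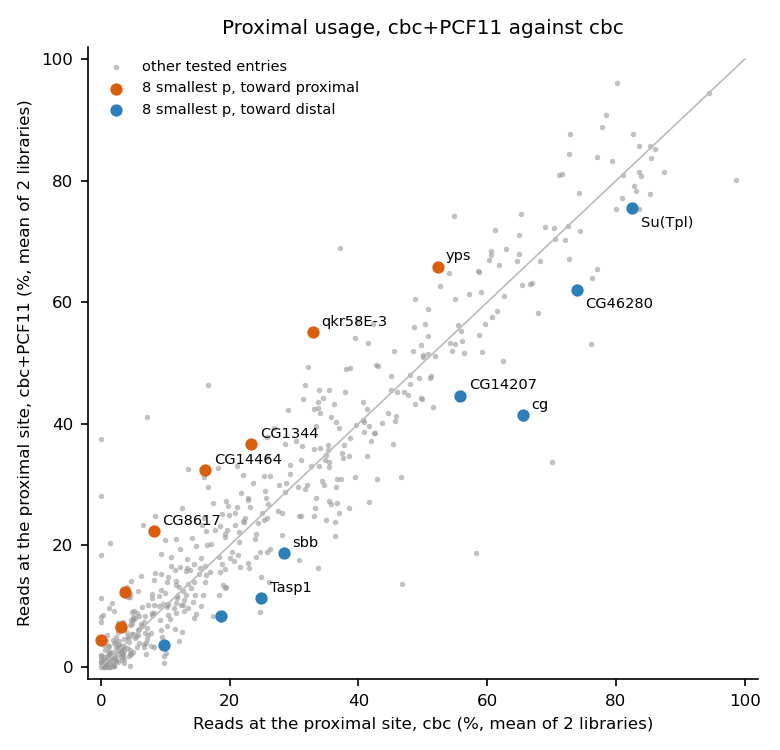
Proximal usage of the 516 tested entries, in percent of an entry's reads, as the mean of 2 libraries with cbc+PCF11 (vertical axis) against cbc (horizontal axis). The grey line marks equal usage, and the coloured points are the 8 entries with the smallest p in each direction, of which none passed by edgeR. Most points lie near the line, and 12 have means over 20 points apart.

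What the test could have seen is set by its precision. Shifts are given as log2 odds ratios of proximal usage, where 0 means equal usage and a positive value means more proximal usage with cbc+PCF11. Their median over all entries was 0.04 and their median size 0.49, with a median standard error of 0.66. The 95% interval of the shift lay within ±1 for 62 entries and within ±2 for 263 (51.0%). For the other entries the interval reached a shift beyond log2 2 in size. Of the 118 entries with a shift beyond 1 in size, 72 had under 50 reads at 1 of their sides in the 4 libraries. Entries of that kind (122 of the 516) had a median size of 1.25, against 0.39 in the remaining 394. Both cbc+PCF11 libraries lay above both cbc libraries in 131 entries (25.4%) and below both in 73 (14.1%). Entries named below for a small p were chosen from these same libraries, so a lack of overlap in them adds no support.

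The entry with the smallest p was qkr58E-3, a KH-domain RNA-binding protein related to quaking. Its proximal usage was 51.8% and 58.4% with cbc+PCF11, against 33.5% and 32.2% with cbc. The groups did not overlap, and the shift was log2 1.33 ± 0.29 (95% interval 0.68 to 1.97, edgeR adjusted p = 0.264). Its windows lie on chromosome 2R (22409500 to 22409530, proximal, and 22409353 to 22409383, distal), both in the 3' UTR, on BDGP6 as in the deposited tables. Another RNA-binding gene, yps, encodes a Y-box protein of germ line RNA particles. It had 62.9% and 68.8% with cbc+PCF11, against 50.0% and 54.7% with cbc, again without overlap (log2 0.82 ± 0.22, edgeR adjusted p = 0.357). The windows of yps are on 3L at 12121679 to 12121709 (proximal) and 12121460 to 12121490 (distal).

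The coiled-coil gene Ccdc85 had 11.6% and 13.2% with cbc+PCF11, against 4.13% and 3.24% with cbc (log2 1.87 ± 0.49, edgeR adjusted p = 0.357). CG8617 had 25.5% and 19.3% with cbc+PCF11, against 9.29% and 7.17% with cbc (log2 1.68 ± 0.36, edgeR adjusted p = 0.264). In both genes the lower cbc+PCF11 library stood above the higher cbc library. CG14464 had 29.3% and 35.5% with cbc+PCF11, against 12.3% and 20.1% with cbc (log2 1.34 ± 0.36). CG1344 had 37.1% and 36.3% with cbc+PCF11, against 25.4% and 21.3% with cbc (log2 0.93 ± 0.26), and both genes had an edgeR adjusted p of 0.357. CG1344 showed the closer duplicates of these 2 genes. CG4686 had 7.45% and 5.60% with cbc+PCF11, against 2.62% and 3.61% with cbc (log2 1.12 ± 0.25, edgeR adjusted p = 0.264). Its windows overlap Mrp5 on the opposite strand, which counting ignored, so its value is uncertain.

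The last of the 8, CG32161, had 22 of 299 and 4 of 284 reads at the proximal site with cbc+PCF11, and 0 of 334 and 0 of 336 with cbc. Pooled, that is 4.46% of reads with cbc+PCF11. A count of 0 in 670 reads allows up to 0.448% with cbc (3 counts over the group), and the observed share is 9.96 times that limit. Library 1 holds 22 of the 26 proximal reads, and library 2 alone, at 1.41%, is 3.15 times the limit. The error of the cbc+PCF11 share is not in these ratios, so they are no lower bounds. The distal window overlaps Zcchc7 on the same strand, so this value is uncertain too. Of the 8 entries, DESeq2 called all 8, qkr58E-3 with an adjusted p of 3.12e-04 and yps with 0.00576.

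DESeq2 called 3 further entries toward the proximal site, named here after their values were seen. EndoA, which encodes endophilin, stood at a mean of 24.8% with cbc+PCF11 against 8.44% with cbc (DESeq2 adjusted p = 0.0223, edgeR 0.357). Cul3, the scaffold of a class of ubiquitin ligases, had 39.8% and 38.7% with cbc+PCF11, against 27.5% and 26.2% with cbc (DESeq2 adjusted p = 0.0239, edgeR 0.515). The translation initiation factor gene eIF2alpha averaged 71.0% with cbc+PCF11 against 64.9% with cbc (DESeq2 adjusted p = 0.0239, edgeR 0.738). In all 3 both cbc+PCF11 libraries lay above both cbc libraries, as in 25.4% of all entries.

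**Figure D2:**
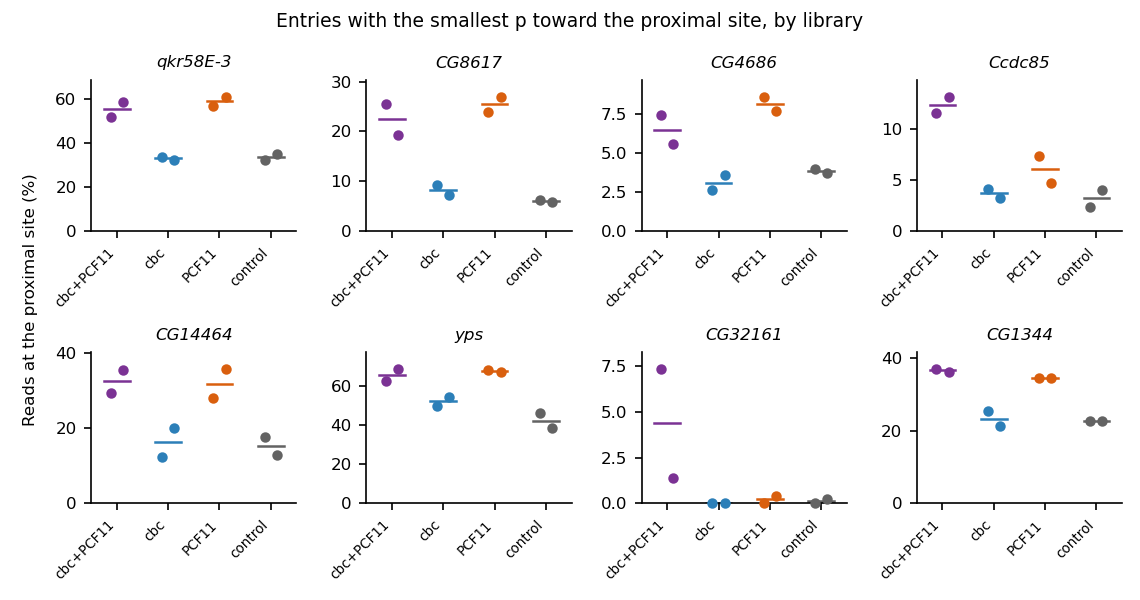
Proximal usage, in percent of an entry's reads, for the 8 entries with the smallest p toward the proximal site. Each point is a library, each line the mean of 2, and each panel has its own vertical axis from 0. In every panel both cbc+PCF11 libraries lie above both cbc libraries, and in qkr58E-3, CG8617, CG4686, CG14464, yps and CG1344 the PCF11 libraries lie near the cbc+PCF11 libraries.

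The PCF11 and control libraries show the same transgene added without cbc, and share no library with cbc+PCF11 and cbc. There, all of these 8 entries had a positive shift, as 327 of all 516 entries did (63.4%). By edgeR 5 of the 8 passed toward the proximal site, where 9.11% of all tested entries did. Both comparisons used a single fit with a shared estimate of the spread, so these passes are not independent of the choice. In qkr58E-3, proximal usage was 56.6% and 60.9% with PCF11, against 32.3% and 34.8% in controls (log2 1.49 ± 0.29, edgeR adjusted p = 0.0125). In CG8617 it was 23.9% and 26.9% with PCF11, against 6.14% and 5.76% in controls (log2 2.43 ± 0.36, edgeR adjusted p = 0.00518). In yps it was 68.3% and 67.5% with PCF11, against 46.2% and 38.6% in controls (log2 1.53 ± 0.22, edgeR adjusted p = 0.00518). In these 3 genes the 2 groups with PCF11 stood high and the 2 without it low, with no overlap.

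CG4686 and CG14464 also passed between PCF11 and control (log2 1.15 and 1.38, edgeR adjusted p = 0.0191 and 0.0417). CG1344, Ccdc85 and CG32161 did not. CG1344 had 34.5% and 34.5% with PCF11, against 22.7% and 22.7% in controls (log2 0.85 ± 0.26, edgeR adjusted p = 0.0744). With cbc against control, 0 of these 8 entries passed, where 5.62% of all tested entries passed toward the proximal site. Their cbc and control values lay close together in qkr58E-3 (log2 -0.04 ± 0.28) and CG1344 (log2 0.05 ± 0.26), and further apart in yps (log2 0.58 ± 0.22, edgeR adjusted p = 0.147). That comparison shares the cbc libraries with the one that chose the 8.

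Toward the distal site the smallest p belonged to E(Pc), the Enhancer of Polycomb, a subunit of the Tip60 acetyltransferase complex. Its proximal usage was 2.86% and 4.29% with cbc+PCF11, against 9.50% and 10.05% with cbc (log2 -1.56 ± 0.45, edgeR adjusted p = 0.357, DESeq2 0.0498). CG46280 had 61.7% and 62.5% with cbc+PCF11, against 73.0% and 74.9% with cbc (log2 -0.80 ± 0.24, edgeR adjusted p = 0.423, DESeq2 0.0229). In both genes the groups did not overlap, and DESeq2 called no other entry toward the distal site.

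The remaining 6 entries of this direction had edgeR adjusted p-values of 0.738 or 0.748. The zinc finger gene cg (combgap) had 32.1% and 50.9% with cbc+PCF11, against 64.2% and 66.9% with cbc. Tasp1, which encodes the protease taspase, had 10.4% and 12.1% with cbc+PCF11, against 25.6% and 24.2% with cbc. Ire1, the sensor of unfolded protein in the endoplasmic reticulum, had 8.57% and 8.22% with cbc+PCF11, against 13.0% and 24.2% with cbc. The groups did not overlap in these genes, though the duplicates of cg with cbc+PCF11 and of Ire1 with cbc lay far apart. Tasp1 and Ire1 have windows that overlap CG13075 and MICU3 on the opposite strand. Su(Tpl), the fly ELL elongation factor, had 74.8% and 76.2% with cbc+PCF11, against 82.7% and 82.4% with cbc, and its distal window overlaps Mi-2. Between PCF11 and control 1 of these 8 distal entries, E(Pc), had a shift in the same direction (log2 -0.68 ± 0.43, edgeR adjusted p = 0.371), where 36.6% of all entries had a negative shift. The other 2, sbb and CG14207, had passed between cbc and control and are described with those genes.

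Overexpression of cbc alone had shifted 39 of the 516 entries against control by edgeR, 29 up (5.62%) and 10 down (1.94%) in proximal usage, 7.56% in all, and these were followed into the cbc+PCF11 libraries. None of the 39 passed between cbc+PCF11 and cbc (lowest edgeR adjusted p = 0.738, 4 with an unadjusted p below 0.05, DESeq2 0), and their shifts ran from log2 -1.47 to 1.49. The 29 had a median proximal usage of 47.8% with cbc+PCF11, 49.9% with cbc, 51.9% with PCF11 and 21.5% in controls. For the 10 the medians were 8.73% with cbc+PCF11, 5.27% with cbc, 9.74% with PCF11 and 28.9% in controls. In both sets the overexpression genotypes lay together and the controls apart. The gap between cbc and controls follows from the choice of these entries. The comparisons also share the cbc and control libraries, so the values are a description.

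Rop, whose Sec1/Munc18 protein acts in vesicle fusion, had 19.2% and 40.1% with cbc+PCF11, 34.4% and 38.6% with cbc, and 1.38% and 2.52% in controls. CG12099 had 75.7% and 78.6% with cbc+PCF11, 79.2% and 82.6% with cbc, and 38.8% and 27.7% in controls. TH1, part of the NELF complex that pauses RNA polymerase II, had 66.8% and 83.9% with cbc+PCF11, 78.0% and 81.9% with cbc, and 33.3% and 22.6% in controls. In these 3 genes cbc+PCF11 library 1 was the lowest of the 4, and in Rop and TH1 the cbc+PCF11 range covered that of cbc. The recycling endosome GTPase gene Rab11 had 53.4% and 58.5% with cbc+PCF11, 49.0% and 48.3% with cbc, and 23.3% and 21.0% in controls. Here cbc+PCF11 lay further from the controls than cbc did. CG31523, which fell in proximal usage with cbc against control, stood at 29.2% and 21.0% with cbc+PCF11, 19.1% and 18.7% with cbc, and 65.7% and 64.0% in controls.

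Idh3b, a subunit of isocitrate dehydrogenase, had 9.64% and 8.10% with cbc+PCF11, 6.26% and 4.94% with cbc, and 15.6% and 17.7% in controls. The cbc+PCF11 libraries stood between the other groups (log2 0.71 ± 0.26 against cbc, edgeR adjusted p = 0.738). The scribbler gene sbb had 16.5% and 21.1% with cbc+PCF11, 24.3% and 32.5% with cbc, and 6.54% and 4.46% in controls (log2 -0.78 ± 0.33 against cbc, edgeR adjusted p = 0.748). CG14207 had 39.5% and 49.7% with cbc+PCF11, 56.9% and 54.8% with cbc, and 21.8% and 19.5% in controls (log2 -0.65 ± 0.30 against cbc, edgeR adjusted p = 0.748). In sbb and CG14207, too, the cbc+PCF11 libraries lay between the cbc and control libraries without overlap. The deubiquitinase gene DUBAI had 62.5% and 71.8% with cbc+PCF11, against 72.1% and 73.2% with cbc. Its groups lay next to each other with a narrow gap and no overlap. Usp7, another deubiquitinase gene, had 0.302% and 0.483% with cbc+PCF11, against 0.405% and 0.323% with cbc, and its groups overlapped.

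Library 1 of cbc+PCF11 stood apart from its duplicate in these genes. It was the nearer of the 2 to the control mean in 33 of the 39 entries, and cbc library 1 was the nearer of its pair in 26. No such count was made over all tested entries, so whether this lean is particular to these genes was not tested. Library 1 of cbc+PCF11 also had fewer summed reads of several of the 39 entries. Among them, Rab11 had 2601 CPM (counts scaled to the listed reads of a library), against 7003 in library 2. Whether this library accounts for values between cbc and control was not tested. Without it, the shift between cbc+PCF11 and cbc was positive in Rop (log2 0.22) and TH1 (log2 0.38), against -0.51 and -0.30 with all 4 libraries. Deaf1 had log2 0.08 without it and -0.58 with it. The shift was nearer to 0 without it in DUBAI (log2 -0.06, against -0.37), CG31855 (-0.14, against -0.69), CG14207 (-0.36, against -0.65) and sbb (-0.56, against -0.78). The same held in CG12099 (-0.21, against -0.33) and Idh3b (0.57, against 0.71). In Rab11 (0.57, against 0.43) and Usp7 (0.39, against 0.08) the shift was further from 0 without that library. In CG31523 it was log2 0.19 without that library and 0.51 with it, and in cg, which had not passed between cbc and control, -0.88 and -1.43.

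**Figure D3:**
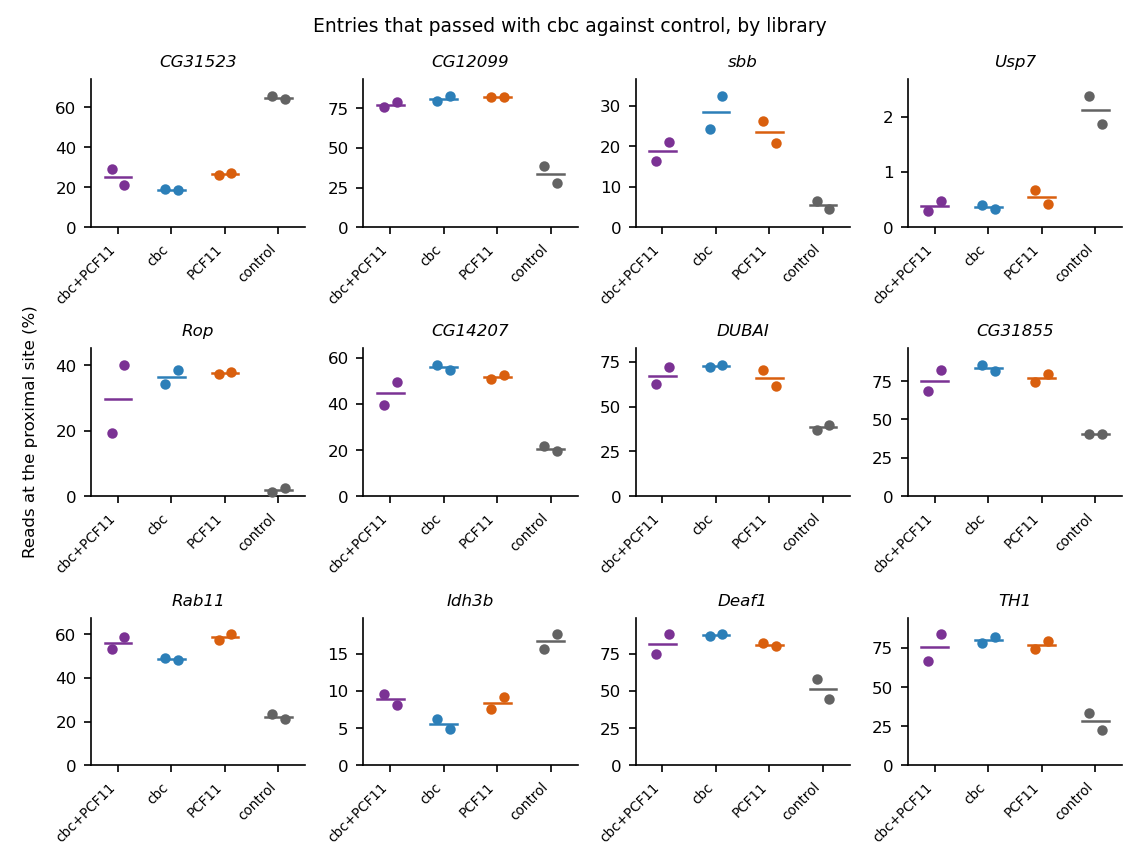
Proximal usage, in percent of an entry's reads, for the 12 entries with the smallest p between cbc and control. Each point is a library and each line the mean of 2, and the vertical axes start at 0 and differ between panels. In all 12 panels the 3 overexpression groups lie on the same side of the controls, and in Rop and TH1 the cbc+PCF11 duplicates lie furthest apart.

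Whether adding PCF11 did the same with and without cbc was tested as an interaction, the shift of cbc+PCF11 against cbc minus the shift of PCF11 against control, which share no library. The 47 entries that rose in proximal usage with PCF11 against control had a median shift of log2 0.08 when PCF11 was added to cbc, against 2.03 when it was added to the control. The 8 that fell (1.55%) had medians of 0.14 and -2.02 in the same order. The medians without cbc are of entries chosen on them and are a description. Across all 516 entries the shifts with and without cbc had a Pearson r of -0.01 and a Spearman rho of 0.02, a description over entries that share libraries.

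The interaction passed in 9 of 516 entries by edgeR (1.74%), 2 higher (0.388%) and 7 lower (1.36%), with 84 at an unadjusted p below 0.05. DESeq2 called 59, of which 47 were lower. The median interaction over all entries was -0.28. The smallest p belonged to CG12099, whose shift was log2 -0.33 ± 0.29 when PCF11 was added to cbc and 3.21 ± 0.30 when it was added to the control (interaction -3.54 ± 0.41, edgeR adjusted p = 0.00738). Rop had -0.51 ± 0.56 with cbc and 4.89 ± 0.65 without it (interaction -5.40 ± 0.86, edgeR adjusted p = 0.0172). For sbb the values were -0.78 ± 0.33 with cbc and 2.42 ± 0.35 without it (interaction -3.20 ± 0.48, edgeR adjusted p = 0.0172). These genes had a positive shift where PCF11 was added to the control and a shift near or below 0 where it was added to cbc.

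CG14207 behaved likewise, with an interaction of -2.71 ± 0.43 (edgeR adjusted p = 0.0172). CG31523 had the opposite sign, with log2 0.51 ± 0.27 with cbc and -2.34 ± 0.27 without it (interaction 2.85 ± 0.38, edgeR adjusted p = 0.0117). Rab11, CG31855, DUBAI and Idh3b had interactions of -1.89, -3.02, -2.02 and 1.85, each with an edgeR adjusted p of 0.0468, and CG31855 overlaps ND-B22 on the opposite strand. Of the 8 entries with the smallest p toward the proximal site, none had an interaction that passed (qkr58E-3 -0.17 ± 0.40, edgeR adjusted p = 0.884). They were chosen on the first term of the interaction, so this is a description. The 9 calls rest on few libraries. Leaving out either cbc library or PCF11 library 1 left 0 calls. Leaving out cbc+PCF11 library 1, PCF11 library 2 or control library 1 left 2, 3 and 4. In each of the 5 fits without 1 library that kept any call, CG12099 and CG31523 were among the calls.

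**Figure D4:**
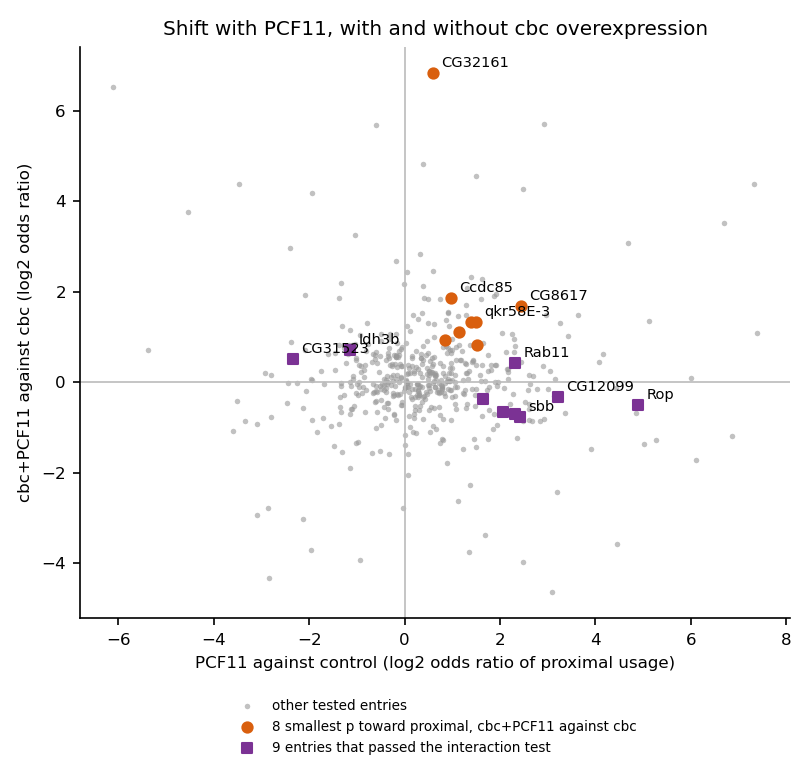
Log2 odds ratio of proximal usage for PCF11 added to cbc (cbc+PCF11 against cbc, vertical axis) and for PCF11 added to the control (PCF11 against control, horizontal axis) in 516 entries. Purple squares are the 9 entries that passed the interaction test and lie between -0.78 and 0.71 on the vertical axis. Orange points are the 8 entries with the smallest p toward proximal for cbc+PCF11 against cbc, with CG32161 placed by a fitted value that rests on a group with 0 reads.

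Summed reads of an entry, relative to the other listed entries, were tested in 523 entries. With cbc+PCF11 against cbc, 2 rose (0.382%) and 0 fell (0%) by edgeR with Benjamini-Hochberg adjustment, with 70 at an unadjusted p below 0.05, and DESeq2 called 4 that rose and 0 that fell. The gene nrv2 encodes a beta subunit of the sodium-potassium pump. It had 5371 and 4635 CPM (counts scaled to the listed reads of a library, with TMM factors) with cbc+PCF11, against 2423 and 2335 with cbc. The lower cbc+PCF11 library stood well above the higher cbc library, and the rise was 2.10-fold (log2 1.07 ± 0.16, edgeR adjusted p = 0.00337). The PCF11 libraries had 2900 and 2686, and the controls 2625 and 2061, close to the cbc libraries. The interaction of nrv2 passed (log2 0.82 ± 0.23, edgeR adjusted p = 0.0352), a description only, as nrv2 was chosen on its first term. Its windows lie on 2L at 6790371 to 6790401 (proximal) and 6789816 to 6789846 (distal), in the 3' UTR.

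The other was alpha-Est5, a member of the alpha-esterase cluster. It had 621 and 467 CPM with cbc+PCF11, against 107 and 146 with cbc, from 184 and 133 raw reads against 31 and 36. The groups did not overlap, and the rise was 4.30-fold (log2 2.10 ± 0.40, edgeR adjusted p = 0.0170). The PCF11 libraries had 242 and 333, and the controls 265 and 215, so that the cbc libraries were the lowest of the 4 groups. The interaction passed as well (log2 1.84 ± 0.55, edgeR adjusted p = 0.0417), again a description, as alpha-Est5 was chosen on its first term. Both calls ended when cbc+PCF11 library 1 or either cbc library was left out, where the highest edgeR adjusted p was 0.104 for nrv2 and 0.315 for alpha-Est5, while the values stayed between log2 0.96 and 1.16 for nrv2 and between 1.88 and 2.34 for alpha-Est5.

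DESeq2 also called Toll-7 and SMSr. The Toll family receptor gene Toll-7 had 113 and 65 raw reads with cbc+PCF11, against 11 and 4 with cbc (log2 3.44 ± 0.76, edgeR adjusted p = 0.0589). The sphingomyelin synthase-related gene SMSr had 4481 and 4410 CPM with cbc+PCF11, against 2828 and 2741 with cbc (log2 0.67 ± 0.17, edgeR adjusted p = 0.116). In both the groups did not overlap, and the duplicates of SMSr lay close together. Vrp1, which encodes the actin regulator verprolin, had 867 and 987 with cbc+PCF11, against 343 and 430 with cbc (log2 1.26 ± 0.33, edgeR adjusted p = 0.123). The clathrin heavy chain gene Chc had 12160 and 10714 with cbc+PCF11, against 8609 and 8279 with cbc (log2 0.44 ± 0.11, edgeR adjusted p = 0.123).

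On the lower side the smallest p belonged to orb, the germ line CPEB protein that controls translation through 3' UTRs. It had 1653 and 1384 CPM with cbc+PCF11, against 2107 and 2404 with cbc. The PCF11 libraries had 1662 and 1541, and the controls 3416 and 3363. The difference from cbc did not pass (log2 -0.57 ± 0.17, edgeR adjusted p = 0.155). The groups formed 3 levels, with both PCF11 genotypes lowest, cbc between and controls highest. The proximal usage of orb was 23.7% and 18.3% with cbc+PCF11, against 9.54% and 13.8% with cbc (log2 1.02 ± 0.79, edgeR adjusted p = 0.878).

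The entry lola-PD of the BTB zinc finger gene lola had 719 and 731 with cbc+PCF11, against 1234 and 1042 with cbc (log2 -0.65 ± 0.23, edgeR adjusted p = 0.223). Another entry of the gene, lola-PAA, had log2 -0.10 ± 0.31 (edgeR adjusted p = 0.880), and its groups overlapped. The centromere protein gene cal1 had 1073 and 1174 with cbc+PCF11, against 1698 and 1549 with cbc (log2 -0.53 ± 0.19, edgeR adjusted p = 0.219). Grip71, a gamma-tubulin ring protein, had 644 and 668 with cbc+PCF11, against 915 and 1200 with cbc (log2 -0.69 ± 0.23, edgeR adjusted p = 0.171). Windows of cal1 and Grip71 overlap cher and Irk3 on the opposite strand. The groups did not overlap in lola-PD, cal1 and Grip71. The remaining named entries, lmgB (log2 -0.61 ± 0.20, edgeR adjusted p = 0.155) and Drep2 (log2 -0.56 ± 0.20, edgeR adjusted p = 0.223), were lower by similar sizes, and lmgB overlaps Acer and lmgA.

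Over all 523 entries the median log2 change was -0.01 with a median standard error of 0.24, and 14 entries had a log2 difference beyond 1 in size, 11 of them positive and 3 negative. Both cbc+PCF11 libraries lay above both cbc libraries in 151 entries (28.9%) and below both in 133 (25.4%). Without cbc+PCF11 library 2 the test called 10 entries in place of 2, of which 3 rose and 7 fell, JIL-1, Deaf1, TH1 and Rab11 among the 7. Those genes had fewer reads in library 1 than in library 2, with 1117 and 2386 CPM of TH1 in the cbc+PCF11 libraries, against 2586 and 2939 with cbc. A fit of the 4 libraries alone called 4 rises, with Toll-7 and SMSr beside nrv2 and alpha-Est5.

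**Figure D5:**
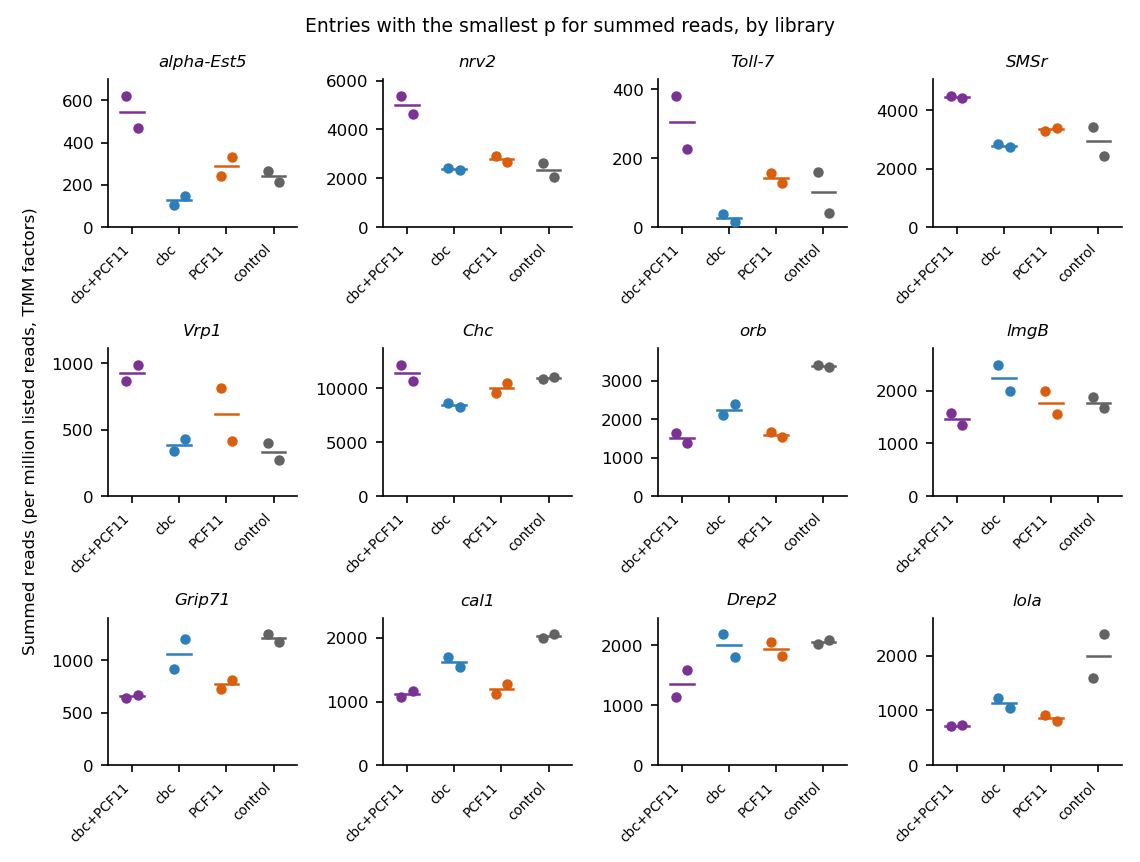
Summed reads in CPM of the listed reads (with TMM factors) for the 6 entries with the smallest p in each direction between cbc+PCF11 and cbc. Each point is a library and each line the mean of 2, and the vertical axes start at 0 and differ between panels. nrv2 and alpha-Est5 passed by edgeR, and in orb, Grip71, cal1 and lola (the entry lola-PD) the PCF11 libraries lie near the cbc+PCF11 libraries.

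Reads of each side were tested alone to see which site carried a change. By edgeR 1 of 943 sides passed (0.106%), the distal side of nrv2 (log2 1.01 ± 0.18, adjusted p = 0.0291), with 114 sides at an unadjusted p below 0.05. The proximal side of nrv2 had log2 1.75 without passing (edgeR adjusted p = 0.150). DESeq2 called 9 sides. Among the entries with the smallest p for usage, qkr58E-3 had log2 0.50 at the proximal and -0.82 at the distal side (edgeR adjusted p = 0.358 and 0.0994), values of opposite sign. CG14464 had 1.21 at the proximal and -0.12 at the distal side (edgeR adjusted p = 0.0742 and 0.812), and yps 0.53 and -0.28 (edgeR adjusted p = 0.0827 and 0.440). When sides needed a mean of 50 or more reads, the proximal sides of CG14464, CG1344 and yps passed as rises by edgeR (adjusted p = 0.0460, 0.0471 and 0.0485), and that of JIL-1 fell (0.0471).

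For the interaction on summed reads, 54 of 523 entries passed by edgeR (10.3%), 20 higher (3.82%) and 34 lower (6.5%), and DESeq2 called 66. Deaf1, a transcription factor gene, had 6215 and 11343 CPM with cbc+PCF11, 10741 and 12386 with cbc. The PCF11 libraries had 8037 and 9581, and the controls 2438 and 2264. Its interaction was log2 -2.30 ± 0.29 (edgeR adjusted p = 1.12e-04), and the 3 overexpression groups lay together above the controls. CG12099 (log2 -2.10), mtd (log2 -1.52), CG11030 (log2 -2.63) and DUBAI (log2 -1.30) were the other 4 with the smallest p, each with 3 high groups and low controls. These 5 passed in all 15 settings run, and the count of 54 fell to 22 without PCF11 library 1 and 23 without PCF11 library 2, and it was 30, 29 and 33 without cbc+PCF11 library 1, cbc library 1 and cbc library 2.

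Gene groups were described by count and median beside the median log2 shift of 0.04 over all 516 entries. No list had an entry that passed for usage or for summed reads between cbc+PCF11 and cbc. Of 24 listed genes of 3' end processing, 0 were among the measured entries. The RNA-binding and translation list had 11 entries with a median shift of log2 0.26, and 5 of them had both cbc+PCF11 libraries above both cbc libraries, where 25.4% of all entries did. Beside yps and orb, nonC, the Smg1 kinase of nonsense-mediated decay, had 87.8% and 94.0% with cbc+PCF11, against 78.8% and 78.2% with cbc (log2 1.49 ± 0.61, edgeR adjusted p = 0.738). Imp, an RNA-binding protein of the testis niche, had 63.5% and 59.2% with cbc+PCF11, against 57.9% and 56.3% with cbc (log2 0.26 ± 0.21, edgeR adjusted p = 0.882).

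The 5 entries for elongation and the Integrator had a median of log2 -0.47, with 0 positive, where 270 of all 516 entries (52.3%) were. Among the 5, CycT showed no shift (log2 -5.60e-04 ± 0.51), and IntS10 had -0.69 ± 0.89. Both cbc+PCF11 libraries lay below both cbc libraries in 1 of the 5, Su(Tpl), against 14.1% of all entries. Without cbc+PCF11 library 1 the median of the 5 was log2 -0.08 and 2 were positive, TH1 and IntS6. IntS6 had 19.9% and 41.8% with cbc+PCF11, against 34.5% and 40.2% with cbc (log2 -0.47, and 0.27 without that library). The 6 mitochondrial entries had a median of 0.36, with 4 whose cbc+PCF11 libraries lay above both cbc libraries (25.4% of all entries did), among them clu with 21.3% and 21.0% with cbc+PCF11, against 13.9% and 14.5% with cbc (log2 0.70 ± 0.26, edgeR adjusted p = 0.738). The 4 lipid metabolism entries had a median of 0.99, with 3 such entries, SMSr, CG31523 and eas, again beside 25.4% of all entries. Proximal usage was low in SMSr (mean 3.49% with cbc+PCF11, against 1.26% with cbc). It was also low in Cds, whose groups overlapped (2.74% against 0.688%, log2 1.87 ± 1.22). The ethanolamine kinase gene eas had 25.1% and 24.9% with cbc+PCF11, against 19.4% and 20.3% with cbc. The 13 transcription factor entries had a median of -0.52, with both cbc+PCF11 libraries above both cbc libraries in 2 and below in 4. The 17 of the ubiquitin pathway had -0.09, with 5 above and 4 below. Of all entries 25.4% lay above and 14.1% below. Medians were 0.20 in 14 chromatin entries, 0.24 in 9 spindle and polarity entries, 0.12 in 10 cell cycle entries, -0.07 in 11 vesicle traffic entries and -0.10 in 9 kinase and growth signalling entries. In the same order 2, 3, 3, 2 and 1 entries lay above, and 2, 2, 1, 1 and 1 below. The BMP and protein folding lists had 2 measured entries each. Some of these medians rest on entries with few proximal reads, such as zfh1 (0.225% and 0.243% with cbc+PCF11, against 0.694% and 2.95% with cbc).

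Entries were also set out by the spacing of their sites. The median shift was log2 0.10 in 100 entries with sites under 200 bp apart, 0.04 in 343 with sites from 200 to under 1000 bp apart, and -0.04 in 73 with sites 1000 bp or more apart. Both cbc+PCF11 libraries lay above both cbc libraries in 32, 85 and 14 entries in the same order of spacing (25.4% of all entries), and below both in 13, 47 and 13 (14.1% of all entries). At the widest spacing the directions were nearly equal.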

How the data were processed

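Reads were handled with Bowtie and SAMtools on dm6/BDGP6, per the submitters' processing notes. Counts of reads at poly(A) sites were deposited unnormalized, and the authors made them with PolyA-miner, which took windows of 30 bp around 1098 supplied sites and used neither strand nor molecular identifiers, per the log of the run. The sources used here do not say how those sites were chosen. Tables of this series were joined by site, giving 1082 windows, and the control columns were identical in all 3. For usage, an entry had to average 10 reads per library and to hold 5 reads on each side of the comparison over all 8 libraries, and 13 entries did not. A single quasi-likelihood fit of all 8 libraries (edgeR 4.0.16, R 4.3.3) had terms for library, for site and for site by genotype. Summed and side reads used TMM factors. An entry passed at a Benjamini-Hochberg adjusted p under 0.05. Standard errors are approximate (coefficient divided by the square root of F). Alternatives were DESeq2 1.42.0, other scalings and read minimums, another choice of sites, fewer libraries and the replicate number as a block. Tests were checked on simulated data. Sites were placed with an Ensembl annotation of BDGP6. In 157 entries a window overlaps another gene, which for 123 lies on the opposite strand.

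Named entries are the 8 with the smallest p in each direction for usage, the 6 for summed reads, the interaction entries that passed (usage) or had the 5 smallest p (summed reads), and the 12 with the smallest p between cbc and control. The members and the gene lists were chosen with earlier results of these data known. A search for poly(A) signal letters needs a genome sequence and was not run.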

Additional observations from a re-analysis of the deposited data

Results flagged for a closer look

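The interaction test on proximal usage compares the shift when PCF11 is added to cbc (cbc+PCF11 against cbc) with the shift when it is added to the control (PCF11 against control), and it passed in 9 entries by edgeR with Benjamini-Hochberg adjustment. Negative interactions, meaning a lower shift with cbc than without it, were log2 -3.54 in CG12099, -3.20 in sbb, -5.40 in Rop, -2.71 in CG14207, -1.89 in Rab11, -3.02 in CG31855 and -2.02 in DUBAI. Positive ones were log2 2.85 in CG31523 and 1.85 in Idh3b. All 9 lost the call without cbc library 1, without cbc library 2 and without PCF11 library 1.

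For summed reads the 5 entries with the smallest p for the same interaction had values of log2 -2.10 in CG12099, -2.30 in Deaf1, -1.52 in mtd, -2.63 in CG11030 and -1.30 in DUBAI. These 5 kept their direction and their call in all 15 settings run.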

How the results depend on the processing

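No result changed its direction while called. For usage between cbc+PCF11 and cbc the count of 0 by edgeR became 13 with DESeq2 and stayed at 0 without any 1 of the 4 libraries, with either read minimum, with the most distal site against all others, with only the 4 libraries and with the replicate block. The 9 interaction calls became 59 with DESeq2 and ranged over 0 to 12 without 1 library. The 2 rises in summed reads became 4 with DESeq2, 4 with only the 4 libraries, and 0 to 10 without 1 library. The 54 interaction calls for summed reads ranged over 22 to 71 without 1 library. The 1 call for side reads became 9 with DESeq2, 5 with a mean of 50 or more reads, 2 with no minimum and 0 to 18 without 1 library. The causes were not tested, and a lone library in a group was assumed to vary like the other groups. The difference of median proximal shares ranged over 0.470 to 1.92 points without 1 library.

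Over 516 entries, same-numbered deviations were little correlated between cbc+PCF11 and cbc (0.07 for usage and 0.13 for reads). Whether replicate numbers pair the samples in a subset, such as the genes that respond to cbc, was not tested. With the number as a replicate block the counts were 0 for usage, 5 for its interaction, 1 for summed reads (nrv2), 37 for their interaction and 0 for side reads. Among single named entries, 486 alternative values kept their side of the threshold, 63 were no longer called, 16 became called and 13 uncalled values moved by more than their spread. Precision is limited by duplicates and by counts of about 300 reads per entry.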
